A study of Homo sapiens with 16 samples.

Results

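CAL148 and HCC1806 are established human breast cancer cell lines, and their monolayer cultures were compared gene by gene in 4 of the 16 RNA-seq libraries of the series, 2 libraries per line. Genes were kept where both CAL148 libraries lay on the same side of both HCC1806 libraries in normalised CPM, the read count scaled to a common library size. That held for 10897 of the 18024 genes tested (60.5%), out of 58735 in the deposited table: CAL148 lay higher in 5562 (30.9%) and lower in 5335 (29.6%). The series as a whole holds 8 groups from 4 lines, grown as monolayers and, for HCC1806 and BT474, also as spheroids. CAL148 cells were kept in DMEM and HCC1806 cells in RPMI 1640, both with 10% fetal bovine serum, and the labels name no drug, transgene or other alteration for either. Line and medium therefore cannot be told apart. Each line descends from a single tumour. The labels do not say whether replicate libraries came from separate cultures, so p-values measure only the spread between these libraries.

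Triple-negative breast cancers, which lack the oestrogen and progesterone receptors and ERBB2 amplification, are a mixed class. Basal-like and squamous tumours carry keratins and transcription factors of the basal layer of stratified epithelium, with p63 as a master regulator, and anchor to the basement membrane through hemidesmosomes. Luminal tumours instead carry the transcription factors of the secretory, luminal layer of breast epithelium. By general knowledge of these lines HCC1806 comes from a squamous carcinoma of the breast, and CAL148 is grouped with the luminal type.

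Expression of 6 genes on which the comparison turns was detected in 1 line and was at or near background, or far lower, in the other, and the bases just upstream of their start sites are shown to place them. TFAP2B, SPDEF and FOXA1 were higher in CAL148, while KRT5, KRT4 and CD44 were lower. The sequences are the 250 bases before the RefSeq start (GRCh38.p14), 5′ to 3′ on the gene's own strand, and capitals mark each CG dinucleotide, which reads the same on both strands. Upstream here refers to the RefSeq start alone. By the gene spans of the deposited table, the FOXA1, KRT5, KRT4 and CD44 windows lie within the gene. Those of TFAP2B and SPDEF overlap it in part.
TFAP2B (chr6:50818621-50818870, plus strand): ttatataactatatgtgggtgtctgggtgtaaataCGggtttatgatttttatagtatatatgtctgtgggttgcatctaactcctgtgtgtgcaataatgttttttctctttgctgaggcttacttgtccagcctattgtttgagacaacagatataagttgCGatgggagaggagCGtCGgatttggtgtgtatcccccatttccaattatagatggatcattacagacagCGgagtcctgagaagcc
SPDEF (chr6:34556330-34556579, minus strand): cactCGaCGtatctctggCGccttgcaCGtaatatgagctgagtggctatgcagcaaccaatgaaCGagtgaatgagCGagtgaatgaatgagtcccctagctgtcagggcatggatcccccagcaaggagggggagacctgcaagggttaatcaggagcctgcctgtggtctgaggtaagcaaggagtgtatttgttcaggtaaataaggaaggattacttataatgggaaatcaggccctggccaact
FOXA1 (chr14:37595250-37595499, minus strand): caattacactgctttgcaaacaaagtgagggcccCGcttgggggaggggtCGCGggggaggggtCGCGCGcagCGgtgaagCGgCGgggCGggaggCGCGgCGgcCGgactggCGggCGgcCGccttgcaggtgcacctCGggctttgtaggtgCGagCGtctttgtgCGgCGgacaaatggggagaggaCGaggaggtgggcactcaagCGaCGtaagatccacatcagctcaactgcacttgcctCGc
KRT5 (chr12:52520395-52520644, minus strand): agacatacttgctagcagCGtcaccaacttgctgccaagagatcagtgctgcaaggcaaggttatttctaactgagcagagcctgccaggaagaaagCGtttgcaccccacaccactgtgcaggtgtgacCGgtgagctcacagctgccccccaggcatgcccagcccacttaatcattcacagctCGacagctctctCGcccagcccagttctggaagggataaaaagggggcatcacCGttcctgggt
KRT4 (chr12:52814117-52814366, minus strand): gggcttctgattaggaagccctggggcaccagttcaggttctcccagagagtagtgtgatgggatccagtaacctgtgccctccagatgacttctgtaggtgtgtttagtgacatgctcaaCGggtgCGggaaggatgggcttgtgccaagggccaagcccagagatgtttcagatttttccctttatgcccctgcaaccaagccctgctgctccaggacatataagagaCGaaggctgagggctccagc
CD44 (chr11:35138921-35139170, plus strand): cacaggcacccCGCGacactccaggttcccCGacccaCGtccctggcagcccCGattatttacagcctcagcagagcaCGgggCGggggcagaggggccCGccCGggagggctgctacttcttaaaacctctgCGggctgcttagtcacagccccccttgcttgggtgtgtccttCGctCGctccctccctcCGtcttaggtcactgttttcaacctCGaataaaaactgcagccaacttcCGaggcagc
Over the 27305 promoters of the same length in the RefSeq table, the median promoter held 11 CG dinucleotides (quartiles 3 and 23). FOXA1 held 26 and CD44 held 15, as many as or more than 82.7% and 59.2% of promoters. TFAP2B held 5, SPDEF 6, KRT5 6 and KRT4 3. FOXA1 was the only 1 of the 6 above the upper quartile, and none was below the lower one. Methylation was not measured, and the counts describe these windows alone.

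The labelled identities were checked against the receptors that define the class. On a CPM scale shared by all 16 libraries, ERBB2 stood at 336 and 324 CPM in CAL148 and at 114 and 120 CPM in HCC1806, far under the 6556 to 9159 CPM of the BT474 and ZR-75-30 monolayers, which are ERBB2-positive by general knowledge. ESR1, the oestrogen receptor, stood at 0 and 0.0460 CPM in CAL148 and at 1.82 and 14.002 CPM in HCC1806, against 65.4 to 104 CPM in those 4 libraries. PGR, the progesterone receptor, had 0 counts in all 4 libraries of CAL148 and HCC1806. All 3 receptors were thus low in both lines, and HCC1806 replicate 2 held the most ESR1. In the fit of the 4 libraries ESR1 missed the threshold (log2 fold change −8.18 ± 1.83, adjusted p = 0.0539) and passed it in 11 of the 16 alternatives. The epithelial adhesion gene EPCAM was nearly equal, with 343 and 355 CPM in CAL148 and 342 and 376 CPM in HCC1806 on the scale of the 4 libraries, which is used from here on.

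Library totals were 29696358 and 34583259 counts in CAL148 and 32390615 and 36218075 in HCC1806, so 3 counts equal 0.0828 to 0.101 CPM before scaling. The intervals and floors given cover only counting error. Among genes with 1 to 20 counts, even values were 1.76 and 1.79 times as frequent as odd ones in CAL148 and 1.97 and 1.57 times in HCC1806, so the mates of a read pair may have been counted separately. In that case 3 counts stand for fewer than 3 fragments, the exact intervals are too narrow, and the bounds written as at least a given fold are higher than 3 fragments would give. With all counts halved, 618 genes were called higher and 1259 lower. The HCC1806 libraries stood apart from each other: log2 values of the 2 replicates differed with an SD of 0.966 in CAL148, 1.87 in HCC1806 and 0.499 to 1.13 in the other 6 groups. Mitochondrially encoded transcripts took 1.85% and 2.80% of CAL148 counts, against 17.8% and 0.768% of HCC1806 counts. In HCC1806 replicate 1 the 35 tested interferon-stimulated genes also summed to 15333 CPM, against 1235 CPM in replicate 2. Counts of called genes are therefore given with and without these libraries. A fit without a library leaves its line with 1, which is taken to vary like the pair of the other line. Markers of other cell types differed between the lines in part. The 18 leukocyte markers summed to 8.73 and 27.5 CPM in CAL148 and 179 and 448 CPM in HCC1806. Most of the HCC1806 sums came from 1 gene, LCP1, whose values are given below. Of the 5 tested, 4 lay lower in CAL148 without overlap, against 29.6% of all genes tested. PTPRC, the pan-leukocyte antigen, had at most 4 counts in any of the 4 libraries. The 10 endothelial markers summed to 7.99 and 6.71 CPM in CAL148 and 9.29 and 6.18 CPM in HCC1806, and PECAM1, an endothelial adhesion protein, had at most 2 counts. Of 12 fibroblast markers 5 passed the count filter, and they summed to 7.39 and 3.83 CPM in CAL148 and to 57.5 and 34.1 CPM in HCC1806. Their part in the differences was not tested.

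A gene was called changed where edgeR's quasi-likelihood test gave a Benjamini-Hochberg adjusted p under 0.05 over all genes tested and the lines did not overlap. CAL148 differed from HCC1806 in 1415 genes (7.85%), with 433 higher (2.4%) and 982 lower (5.45%). The calls were large differences: the smallest was 2.14 on the log2 scale and the median of their sizes 8.78, whereas the median over all genes tested was −0.09. In 477 of the lower genes both CAL148 libraries held 0 counts, and in 132 of the higher genes both HCC1806 libraries did. A gene with at most 3 counts over both libraries of 1 line passed the count filter through the other line alone, which fixed its direction. Of the genes tested this held for 1022 in CAL148, 539 of them called lower, and for 587 in HCC1806, 168 of them called higher. Genes slightly above 3 counts could pass in the same way and are not in these numbers. Most gene lists hold some such genes, also where their number is not given below. The other 9482 genes without overlap did not pass the test, and 4990 genes had an unadjusted p under 0.05. At the edge of the rule, STX10 lay just inside, with 43.9 and 62.3015 CPM in CAL148 against 64.9 and 62.3035 CPM in HCC1806. EXT2 lay just outside, with 72.2726 and 65.9 CPM in CAL148 against 72.2724 and 89.4 CPM in HCC1806. Without HCC1806 replicate 1, the counts were 1750 higher and 2572 lower, and without replicate 2 they were 2906 and 3559. Without CAL148 replicate 1 they were 431 and 868, and without CAL148 replicate 2 they were 381 and 860. Of the 1415 calls, 1406 were made again, in the same direction, in both fits that leave out an HCC1806 library and 839 in all 4 fits that leave out a library.

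**Figure D1:**
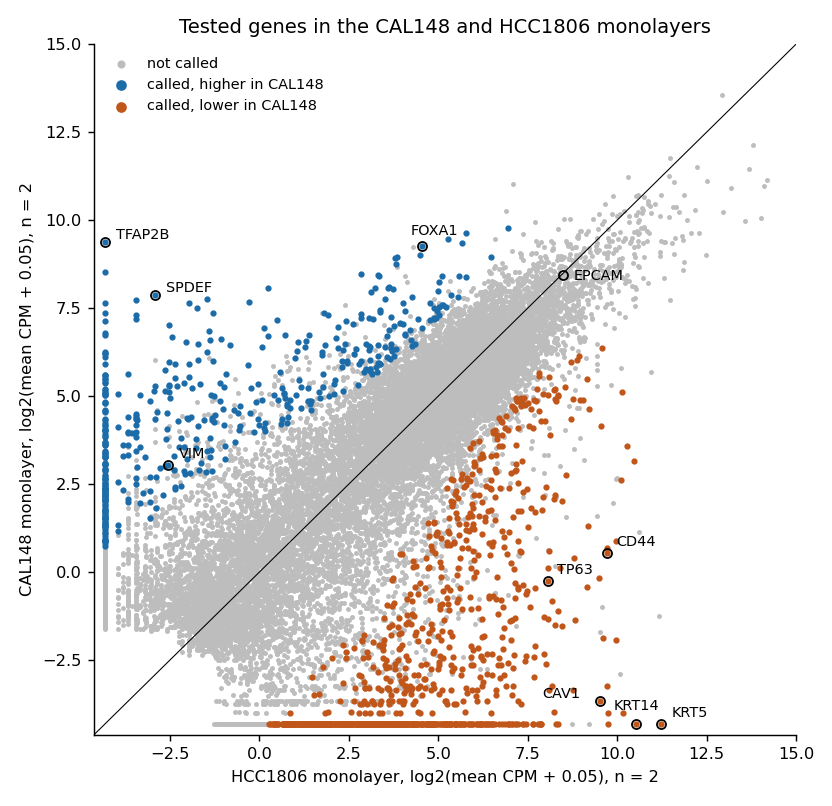
Mean normalised CPM of each gene tested in CAL148 (vertical axis) and HCC1806 (horizontal axis), both as log2 after adding a small constant, n = 2 libraries per line. Blue points are the 433 genes called higher and orange points the 982 called lower in CAL148, and the columns of points on the left and bottom edges are genes with 0 counts in HCC1806 or CAL148.

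CAL148 held more of several transcription factors of luminal breast epithelium than HCC1806, where TFAP2B had no reads. Of 30 tested luminal and hormone receptor genes, 10 were called higher (33.3%, against 2.4% over all genes) and 1 lower. Without overlap, 19 lay higher and 6 lower, and 5 overlapped, against 30.9% higher and 29.6% lower over all genes. Of the 30, 8 had at most 3 counts over both HCC1806 libraries and so passed the count filter through CAL148 alone. SPDEF, with 4 and 0 counts there, is not among the 8. The list's median log2 fold change was 2.06. TFAP2B (chr6:50818723-50847613), an AP-2 family transcription factor, had 774 and 548 CPM in CAL148 and 0 counts in both HCC1806 libraries, at least 12723-fold higher (adjusted p = 0.0184). It had the largest fold among the higher genes named. FOXA1, a pioneer factor that opens chromatin for the oestrogen receptor, had 649.8 and 570.0 CPM in CAL148 and 14 and 32.4 CPM in HCC1806, a log2 fold change of 4.71 ± 0.70 (SE, adjusted p = 0.0281). SPDEF, an ETS factor of secretory cells, had 189 and 277 CPM in CAL148 and 4 and 0 counts in HCC1806 (log2 fold change 11.56 ± 1.34, adjusted p = 0.0197). All 3 genes were thus at high levels in both CAL148 libraries, and in HCC1806 only FOXA1 had more than a few reads. TOX3, a chromatin protein of luminal cells, was at least 914-fold higher, and CREB3L4, a membrane-bound transcription factor, had 244 and 304 CPM in CAL148 and 18.8 and 5.77 CPM in HCC1806.

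Other luminal genes did not separate the lines by the test. ESR1 was among them and lay lower in CAL148 (log2 fold change −8.18 ± 1.83, adjusted p = 0.0539). GATA3, the chief luminal GATA factor, had 235 and 93.4 CPM in CAL148 and 215 and 61.9 CPM in HCC1806 (log2 fold change 0.25 ± 0.78, adjusted p = 0.873). The simple-epithelial keratins KRT8 and KRT18 had log2 fold changes of −1.05 ± 0.64 and −1.94 ± 0.63 (adjusted p = 0.347 and 0.115). KRT7, a keratin of simple and glandular epithelium, was the list's member called lower, with 12.6 and 11.3 CPM in CAL148 and 1354 and 1099.5 CPM in HCC1806 (log2 fold change −6.68 ± 0.71). Without HCC1806 replicate 1 the list had 16 higher and 4 lower calls, and without replicate 2 it had 16 and 3. KRT18 passed the test in both of those fits (adjusted p = 0.0366 and 0.0114).

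Genes known to respond to androgen were called at shares near those over all genes tested. Of 24 tested androgen-response and apocrine genes, 1 was called higher and 1 lower (4.17% each way, against 2.4% and 5.45% over all genes), and their median log2 fold change was −0.0034, against −0.09 over all genes. APOD, a lipocalin and classical androgen-regulated secretory product, had 76.0 and 215 CPM in CAL148 and 2 and 0 counts in HCC1806, a ratio of 4413 (exact 95% interval 1221 to 36443). KYNU, a kynurenine pathway enzyme, was lower, with 0.455 and 2.63 CPM in CAL148 and 47.2 and 53.6 CPM in HCC1806 (adjusted p = 0.0453). It lost its call without CAL148 replicate 1 (adjusted p = 0.0700). Higher calls numbered 5 without HCC1806 replicate 1 and 8 without replicate 2, and lower calls 4 and 1. Without CAL148 replicate 1 there were 3 higher and none lower, and without CAL148 replicate 2 there were 2 and 1.

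Most of the basal and squamous programme ran the other way. Of 27 tested basal and squamous identity genes, 15 were called lower in CAL148 (55.6%, against 5.45% over all genes) and none higher. Without overlap, 20 lay lower and 3 higher, and 4 overlapped, against 29.6% lower and 30.9% higher over all genes. The list's median log2 fold change was −7.88. Of the 27, 9 had at most 3 counts over both CAL148 libraries and so passed the count filter through HCC1806 alone. Keratins led: KRT5 (chr12:52514575-52520687), the basal-layer type II keratin, had 0 counts in both CAL148 libraries and 1611 and 3183 CPM in HCC1806, at least 64322-fold lower (adjusted p = 0.0184). Its partner KRT14 had 0 counts in CAL148 and 1975 and 943 CPM in HCC1806, at least 34795-fold lower. KRT17, a keratin of stressed and basal epithelium, had 0 counts in CAL148 and 1604 and 100.4 CPM in HCC1806, at least 18356-fold lower. All 3 keratins were without reads in CAL148, and of them KRT17 had the widest gap between the HCC1806 libraries. KRT6A, of hyperproliferative epithelium, had 0 and 1 counts in CAL148 and 268 and 2001 CPM in HCC1806. KRT13 and KRT4, a keratin pair of stratified mucosa, had 1 count and none over both CAL148 libraries, against 1362 and 345 CPM (KRT13) and 557 and 73.0 CPM (KRT4) in HCC1806. KRT6A shares most of its sequence with neighbouring copies, so reads may have been split between them.

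TP63, which encodes the basal-layer regulator p63, had 0.966 and 0.610 CPM in CAL148 and 234 and 298 CPM in HCC1806 (log2 fold change −8.40 ± 0.67, adjusted p = 0.0184). CDH3, the basal cell cadherin, had 31.9 and 26.5 CPM in CAL148 and 187 and 239 CPM in HCC1806 (log2 fold change −2.87 ± 0.49, adjusted p = 0.0341). Unlike the keratins, CDH3 was expressed in both lines, and its call was lost without either CAL148 library (adjusted p = 0.228 and 0.299). SOX2, a stem cell and squamous factor, was not called: it had 33.9 and 62.0 CPM in CAL148 and 0.909 and 15.5 CPM in HCC1806 (adjusted p = 0.260). Without HCC1806 replicate 2 SOX2 was called higher, at a log2 fold change of 5.70 (adjusted p = 0.0115). The list's lower calls ranged from 15 to 20 over the 4 fits that leave out a library, and its higher calls from 0 to 3.

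**Figure D2:**
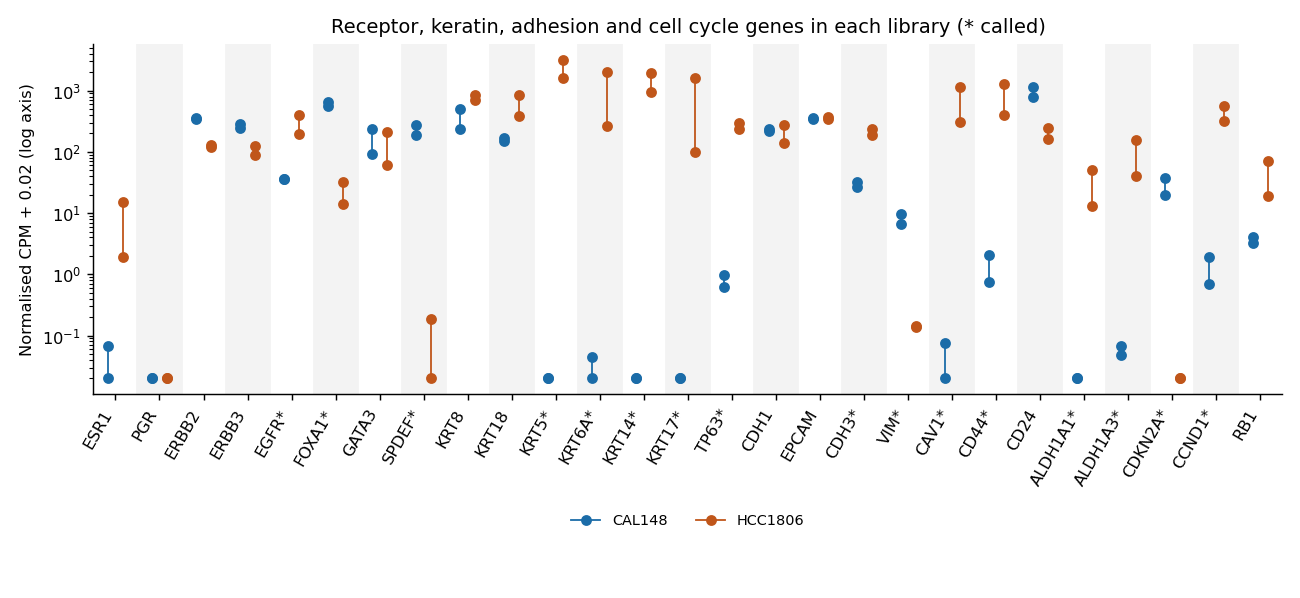
Normalised CPM (log axis, after adding a small constant) of 27 receptor, keratin, adhesion, stem cell and cell cycle genes in each library, with CAL148 in blue left of HCC1806 in orange and a line joining the 2 replicates. FOXA1, SPDEF, VIM and CDKN2A were called higher and the basal keratins, TP63, CAV1, CD44 and CCND1 lower, while EPCAM and CDH1 lie at about the same height in both lines.

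Per kilobase, on the deposited FPKM scale, KRT19 was the most abundant keratin gene in every library, at 329 and 708 FPKM in CAL148 and 1878 and 832 FPKM in HCC1806. What came after it differed. In CAL148 KRT19 made up 67.6% and 78.1% of the summed keratin FPKM, and KRT18 (49.2 and 43.5 FPKM) and KRT8 (31.3 and 68.1 FPKM) were within the next 3 ranks. In HCC1806 KRT19 made up 36.0% and 25.3%, followed at rank 2 by KRT14 in replicate 1 (874 FPKM, against 394 in replicate 2) and by KRT5 in replicate 2 (708 FPKM, against 379 in replicate 1). KRT17 had 517 and 30.6 FPKM in HCC1806, and KRT6A had 92.2 and 652 FPKM, at rank 10 in replicate 1 and rank 3 in replicate 2. KRT15, which was not called, had 6.13 and 39.6 FPKM in CAL148 and 30.9 and 3.70 FPKM in HCC1806. The summed keratin FPKM was 486 and 907 in CAL148 and 5225 and 3294 in HCC1806. CAL148 thus had a lower summed keratin level, most of it KRT19, and the order of the squamous keratins varied between the HCC1806 replicates.

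**Figure D3:**
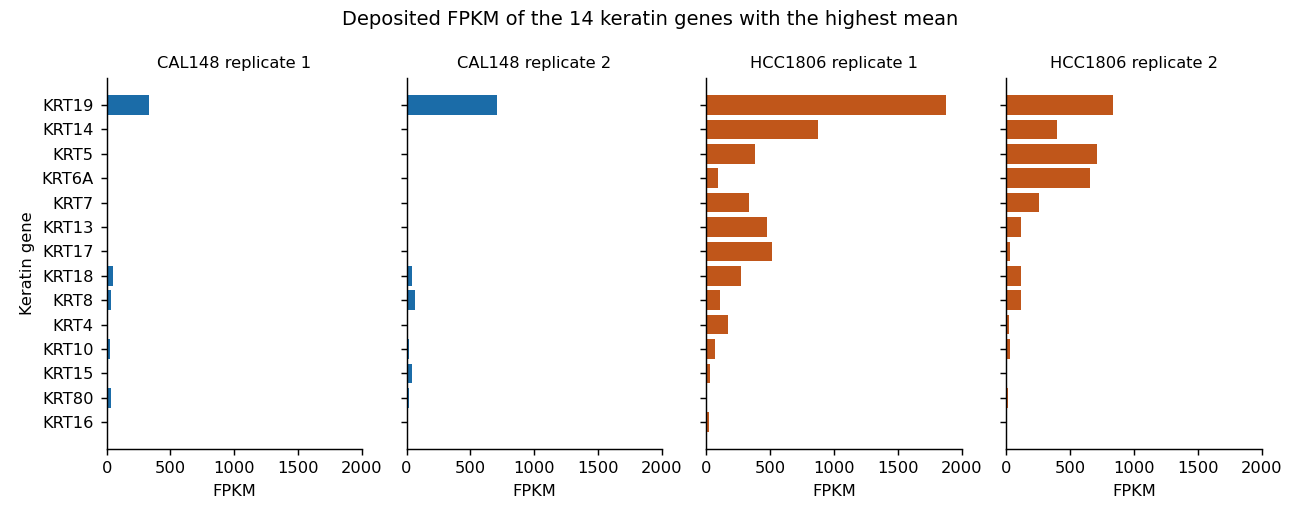
Deposited FPKM of the 14 keratin genes with the highest mean over the 4 libraries, 1 panel per library, CAL148 in blue and HCC1806 in orange on a shared linear axis. KRT19 leads in each panel, and the bars of KRT14, KRT5, KRT6A, KRT13 and KRT17 appear in the HCC1806 panels alone.

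Products of squamous differentiation followed the keratins in part. Of 27 tested desmosome and cornified-envelope genes, 5 were called lower (18.5%) and none higher, with a median of −2.07. The count filter fixed the direction of 5 of the 27, which had at most 3 counts over both CAL148 libraries. DSG3, the desmosomal cadherin of the basal layers, had 0 and 1 counts in CAL148 and 24.4 and 31.8 CPM in HCC1806. Its partner DSC3 had 0.171 and 0.975 CPM in CAL148 and 65.6 and 104 CPM in HCC1806 (adjusted p = 0.0276). CSTA, a protease inhibitor of the cornified envelope, had 0 and 4 counts in CAL148 and 502 and 48.2 CPM in HCC1806 (log2 fold change −12.29 ± 1.95), and SPRR1B, an envelope precursor, was at least 359-fold lower. Lower calls on this list numbered 12 without HCC1806 replicate 1 and 15 without replicate 2. Of 13 kallikrein-related peptidases 7 were tested, and all 7 had at most 3 counts over both CAL148 libraries. They passed the count filter through HCC1806 alone, which fixed their direction, and 4 met the call, so their share is no measure of the family. KLK10 had 0 counts in CAL148 and 57.7 and 194 CPM in HCC1806, and KLK11 had 0 counts and 48.2 and 40.03 CPM, at least 3500-fold and 1103-fold lower. Without HCC1806 replicate 2, 9 kallikreins were called lower.

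Serpins split by family member. Of 15 tested, 6 were called lower (40%) and 1 higher (6.67%). Direction was fixed by the count filter for 4 of the 15, with at most 3 counts over both CAL148 libraries. SERPINB5, or maspin, a basal epithelial serpin, had 0.455 and 0.146 CPM in CAL148 and 141 and 477 CPM in HCC1806, and SERPINB2, the plasminogen activator inhibitor 2, had 0 counts in CAL148 and 8.51 and 89.5 CPM in HCC1806. SERPINI1, or neuroserpin, was the member called higher, with 218 and 217 CPM in CAL148 and 8 and 10 counts in HCC1806 (log2 fold change 9.44 ± 0.63, adjusted p = 0.0184). Lower calls numbered 7 to 11 over the fits that leave out a library, the most without HCC1806 replicate 2.

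Several genes for attachment to the basement membrane were lower in CAL148. Of 24 tested integrins and laminins, 8 were called lower (33.3%) and none higher. ITGB4, the hemidesmosomal integrin β4, had 11.8 and 5.83 CPM in CAL148 and 1108 and 1718 CPM in HCC1806 (log2 fold change −7.32 ± 0.86, adjusted p = 0.0197). The laminin-332 chain LAMB3 had 1.62 and 1.98 CPM in CAL148 and 936 and 1051 CPM in HCC1806 (log2 fold change −9.11 ± 0.76). ITGA3, the laminin-binding integrin α3, had 32.4 and 28.5 CPM in CAL148 and 219 and 648 CPM in HCC1806 and lost its call without either CAL148 library (adjusted p = 0.143 and 0.165). The list's lower calls numbered 5 without either CAL148 library, 14 without HCC1806 replicate 1 and 9 without replicate 2, where 3 higher calls joined them.

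Of 23 tested collagens and matrix proteases, 11 were called lower (47.8%) and none higher, at a median of −5.34. MMP14, a membrane-bound collagenase, had 0.824 and 2.10 CPM in CAL148 and 257 and 289.6 CPM in HCC1806 (log2 fold change −7.54 ± 0.77). COL4A2, a basement-membrane collagen chain, had 0.171 and 0.195 CPM in CAL148 and 45.7 and 369.5 CPM in HCC1806. The inhibitors of these proteases were low too: TIMP3 had 4 and 0 counts in CAL148 and 435 and 141 CPM in HCC1806, and TIMP2 had 3.69 and 10.3 CPM in CAL148 and 116 and 144 CPM in HCC1806. TIMP2 lost its call without CAL148 replicate 1 (adjusted p = 0.0977). This list had 11 to 15 lower calls over all fits that leave out a library or rescale them with DESeq2 or upper-quartile factors.

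Many caveolar and cytoskeletal genes were lower in CAL148: of 28 tested members, 14 were called lower (50%) and none higher. Of the 28, 4 had at most 3 counts over both CAL148 libraries, so the count filter fixed their direction. CAV1, the caveola coat protein, had 2 and 0 counts in CAL148 and 309 and 1169 CPM in HCC1806, a ratio of 30980 between HCC1806 and CAL148 (exact 95% interval 8576 to 255819). S100A10, an annexin partner, had 3.38 and 4.56 CPM in CAL148 and 337 and 369 CPM in HCC1806 (log2 fold change −6.47 ± 0.59). ANXA1, a membrane-binding annexin, had 1.65 and 0.0488 CPM in CAL148 and 413 and 1023 CPM in HCC1806, and MSN, moesin, which links actin to the membrane, had 6.54 and 6.78 CPM in CAL148 and 101 and 664 CPM in HCC1806. ANXA8, of which near-identical copies exist, was at least 5519-fold lower. Without HCC1806 replicate 1 there were 22 lower calls, and without replicate 2 there were 16 and 3 higher.

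Of 23 tested YAP/TAZ targets, genes switched on when the Hippo pathway is off, 8 were called lower (34.8%) and none higher. The count filter fixed the direction of 5 of the 23, with at most 3 counts over both CAL148 libraries. F3, tissue factor, had 0.341 and 0.683 CPM in CAL148 and 42.4 and 532 CPM in HCC1806. AJUBA, a LIM protein of the pathway, had 49.9 and 24.2 CPM in CAL148 and 257 and 355 CPM in HCC1806, and FJX1, a Golgi protein, had 20.8 and 18.2 CPM in CAL148 and 185 and 279 CPM in HCC1806. AJUBA and FJX1 were expressed in both lines, and both lost their calls without either CAL148 library (adjusted p of 0.117 to 0.370). The list had 4 lower calls without either CAL148 library and 14 without HCC1806 replicate 1.

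Mesenchymal genes did not move as 1 group. Of 19 tested, 5 had at most 3 counts over both CAL148 libraries and 1 over both HCC1806 libraries, so the count filter fixed their direction. Among all 19, 1 was called higher and 5 lower (5.26% and 26.3%). VIM, vimentin, the mesenchymal intermediate filament, was the higher one, though low in both lines, with 6.57 and 9.70 CPM in CAL148 and 3 and 4 counts in HCC1806 (log2 fold change 6.04 ± 1.00, adjusted p = 0.0329). It lost its call without CAL148 replicate 2 (adjusted p = 0.0840). SNAI2, or Slug, a repressor also found in basal breast cells, had 0 counts in CAL148 and 41.7 and 47.6 CPM in HCC1806, at least 1147-fold lower. TGFB1, the growth factor, had 0.512 and 2.05 CPM in CAL148 and 35.6 and 61.7 CPM in HCC1806 and lost its call without CAL148 replicate 1 (adjusted p = 0.0509). The list had 2 higher and 9 lower calls without HCC1806 replicate 1 and 4 and 8 without replicate 2. Of 26 epithelial adhesion and tight junction genes 1 was called lower (3.85%, near the 5.45% over all genes). That was CLDN1, claudin 1, with 0 counts in CAL148 and 387 and 13.9 CPM in HCC1806 (adjusted p = 0.0483), a call lost in limma on log2 FPKM (adjusted p = 0.0546). CDH1, E-cadherin, had 236 and 220 CPM in CAL148 and 140 and 274 CPM in HCC1806 (adjusted p = 0.899). Without HCC1806 replicate 1 that list had 5 higher and 2 lower calls, and without replicate 2 it had 6 and 4.

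Growth factor receptors of the same family differed in direction. EGFR had 36.2 CPM in both CAL148 libraries and 197 and 405 CPM in HCC1806 (log2 fold change −3.06 ± 0.58, adjusted p = 0.0422), a call lost without either CAL148 library (adjusted p = 0.2496 and 0.245). Its relatives ran the other way without passing the test: ERBB2 had 355 and 344 CPM in CAL148 and 119 and 129 CPM in HCC1806 (log2 fold change 1.49 ± 0.47, adjusted p = 0.108), and ERBB3, the kinase-impaired partner of ERBB2, had 282 and 246 CPM in CAL148 and 125 and 90.4 CPM in HCC1806 (adjusted p = 0.151). Both lay higher in CAL148 without overlap, and ERBB2 passed without HCC1806 replicate 1 (adjusted p = 0.0328) or replicate 2 (adjusted p = 0.0236), ERBB3 without replicate 1 (adjusted p = 0.0306).

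Among EGF-family ligands, AREG, amphiregulin, had 6 and 50 counts in CAL148 and 47.8 and 27.9 CPM in HCC1806, and NRG1, neuregulin 1, had 0 counts in CAL148 and 19.2 and 143 CPM in HCC1806, at least 2333-fold lower. NRG3, another neuregulin, had 7.50 and 9.34 CPM in CAL148 and 0 counts in HCC1806, at least 166-fold higher. The ligands thus split between the lines. HBEGF was not called, with 1.76 and 1.85 CPM in CAL148 and 56.8 and 11.4 CPM in HCC1806 (adjusted p = 0.0564), but passed without either HCC1806 library (adjusted p = 0.0349 and 0.00692). Of the feedback inhibitors of the receptor, LRIG1 had 180.5 and 148 CPM in CAL148 and 5.95 and 0.962 CPM in HCC1806 (log2 fold change 5.58 ± 1.02), while ERRFI1 had 22.8 and 10.1 CPM in CAL148 and 119 and 127 CPM in HCC1806. ERRFI1 lost its call without either CAL148 library (adjusted p = 0.104 and 0.371). Over the whole family, 2 of 17 were called higher and 5 lower (11.8% and 29.4%). Without HCC1806 replicate 1 the family had 4 higher and 7 lower calls, and without replicate 2 it had 4 and 6.

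Of 26 other receptor tyrosine kinases, 1 was called higher and 6 lower (3.85% and 23.1%). FGFR1 had 80.3 and 104 CPM in CAL148 and 0.909 and 3.21 CPM in HCC1806 (log2 fold change 5.48 ± 0.82, adjusted p = 0.0281). The related receptors ran opposite: FGFR3 had 1.79 and 3.73 CPM in CAL148 and 97.0 and 93.5 CPM in HCC1806 (log2 fold change −5.11 ± 0.64), and FGFR2 had 3.04 and 2.02 CPM in CAL148 and 59.2 and 35.9 CPM in HCC1806. MET, the hepatocyte growth factor receptor, had 0.853 and 2.05 CPM in CAL148 and 106 and 207 CPM in HCC1806, and EPHA2, an ephrin receptor, had 6.22 and 0.805 CPM in CAL148 and 116 and 269 CPM in HCC1806. CAL148 thus held mainly FGFR1 and HCC1806 mainly FGFR3 and FGFR2 of these FGF receptors. FGFR2 lost its call without either CAL148 library (adjusted p = 0.0548 and 0.106). The list had 3 higher and 10 lower calls without HCC1806 replicate 1 and 6 and 9 without replicate 2.

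Downstream, the PI3K regulatory subunits PIK3R1 and PIK3R3 were higher. PIK3R1 had 169 and 281 CPM in CAL148 and 12.3 and 25.8 CPM in HCC1806 (log2 fold change 3.56 ± 0.64, adjusted p = 0.0387), and PIK3R3 had 108 and 215 CPM in CAL148 and 8.18 and 6.12 CPM in HCC1806 (log2 fold change 4.50 ± 0.61). The insulin receptor substrates were lower: IRS1 had 6 and 2 counts in CAL148 and 21.9 and 179.5 CPM in HCC1806, and IRS2 had 4.01 and 2.71 CPM in CAL148 and 103 and 73.1 CPM in HCC1806. Of 19 tested pathway genes, 2 were called higher and 3 lower (10.5% and 15.8%). PIK3R3 lost its call in limma-voom (adjusted p = 0.0690), PIK3R1 without CAL148 replicate 2 (adjusted p = 0.0572) and PIK3CD, a catalytic subunit, without CAL148 replicate 1 (adjusted p = 0.0612). Lower calls numbered 6 without either HCC1806 library, and higher calls 5 without replicate 2.

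Breast stem cell markers divided between the lines. Of 29 tested, 3 were called higher and 7 lower (10.3% and 24.1%). CD44, the hyaluronan receptor, had 0.739 and 2.05 CPM in CAL148 and 399 and 1274 CPM in HCC1806 (log2 fold change −9.22 ± 1.16, adjusted p = 0.0217). CD24, a surface glycoprotein set against CD44 in stem cell sorting, had 799 and 1151 CPM in CAL148 and 248 and 165 CPM in HCC1806 and missed the threshold (adjusted p = 0.0764). CD24 passed without either HCC1806 library (adjusted p = 0.0192 and 0.0263). ALDH1A3, a main source of aldehyde dehydrogenase activity in breast cancer cells, had 1 and 2 counts in CAL148 and 40.5 and 155 CPM in HCC1806, a ratio of 2729 between HCC1806 and CAL148 (exact 95% interval 934 to 13239). ALDH1A1 had 0 counts in CAL148 and 50.6 and 13.1 CPM in HCC1806, at least 727-fold lower. PROM1, which encodes CD133, was higher, with 22.6 and 104 CPM in CAL148 and 6 and 0 counts in HCC1806, and so was ALDH3B2 (85.8 and 90.1 CPM in CAL148 and 0.454 and 0.583 CPM in HCC1806). PROM1 lost its call in limma-voom (adjusted p = 0.116). The CD44 and ALDH1 markers were thus on the side of HCC1806, and CD133 and ALDH3B2 on that of CAL148. BMI1, a Polycomb protein, was called higher (log2 fold change 3.14 ± 0.49) and lost its call without either CAL148 library (adjusted p = 0.0545 and 0.112). When HCC1806 replicate 1 was left out, the list had 7 higher and 14 lower calls, and without replicate 2 it had 7 and 11. Without CAL148 replicate 1 the lower calls numbered 4.

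Several detoxifying enzymes were lower in CAL148. Of 30 tested NRF2 targets, aldo-keto reductases and glutathione transferases, 8 were called lower (26.7%) and none higher. AKR1C1, AKR1C2 and AKR1C3, steroid-reducing enzymes from adjacent genes of similar sequence, had at most 8 counts in any CAL148 library. AKR1C2 had 754 and 914 CPM in HCC1806, AKR1C1 had 145 and 315 CPM and AKR1C3 had 279 and 232 CPM. GPX2, a glutathione peroxidase, had 0.625 and 0.829 CPM in CAL148 and 125 and 202 CPM in HCC1806 (log2 fold change −7.80 ± 0.66). Lower calls numbered 17 without HCC1806 replicate 1 and 16 without replicate 2. Of 24 glycolysis genes, 2 were called lower (8.33%, against 5.45% over all genes): SLC16A3, the lactate exporter MCT4, had 0.881 and 0.317 CPM in CAL148 and 142 and 209 CPM in HCC1806, and LDHB, a lactate dehydrogenase subunit, had 0 counts in CAL148 and 22.5 and 10.9 CPM in HCC1806. Glycolysis had 1 higher and 8 lower calls without HCC1806 replicate 1 and 6 and 7 without replicate 2. Among ABC transporters and sterol and fatty acid synthesis genes, 1 of 17 (5.88%) and 1 of 28 (3.57%) were called, both lower and both near the 5.45% over all genes. The transporter called was ABCC3, a drug and conjugate exporter, which had 8 and 2 counts in CAL148 and 63.4 and 56.8 CPM in HCC1806. Without HCC1806 replicate 2, 10 of the synthesis genes were called higher, and without replicate 1, 6 were called lower. ABC transporters had 3 higher and 6 lower calls without replicate 1 and 5 and 1 without replicate 2, against 2 and 1 without CAL148 replicate 1 and 2 and 2 without CAL148 replicate 2.

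Of 22 tested G1 regulators and RB pathway genes, 1 was called higher and 1 lower (4.55% each way, against 2.4% and 5.45% over all genes). CDKN2A (chr9:21967753-21995301), which encodes the CDK4 and CDK6 inhibitor p16, had 19.6 and 37.1 CPM in CAL148 and 0 counts in both HCC1806 libraries, at least 566-fold higher (adjusted p = 0.0219). CCND1, cyclin D1, had 1.88 and 0.683 CPM in CAL148 and 314 and 568 CPM in HCC1806 (log2 fold change −8.43 ± 0.92, adjusted p = 0.0188). RB1 itself had 3.21 and 4.10 CPM in CAL148 and 19.3 and 69.9 CPM in HCC1806 and missed the threshold (log2 fold change −3.61 ± 0.82, adjusted p = 0.0554). CDKN2A was thus read in CAL148 alone, while CCND1 and RB1 lay lower there without overlap. RB1 passed without either HCC1806 library (adjusted p = 0.00714 and 0.0264). CCNE1, cyclin E1, had 24.3 and 40.1 CPM in CAL148 and 59.0 and 109.9 CPM in HCC1806 (adjusted p = 0.179) and passed without HCC1806 replicate 1 (adjusted p = 0.0370). None of 34 DNA replication and mitosis genes and none of 25 p53 targets was called in either direction. MKI67, the proliferation antigen, had 79.5 and 372 CPM in CAL148 and 171 and 1285 CPM in HCC1806 (adjusted p = 0.412), wide apart within each line. Leaving out HCC1806 replicate 1, 9 replication genes were called lower, 6 p53 targets higher and 2 lower. Without replicate 2, 4 replication genes were called higher and 3 lower, and 8 p53 targets higher and 4 lower. Of the RB list 3 higher and 4 lower calls came without replicate 1 and 7 and 4 without replicate 2, against 2 and 2 without CAL148 replicate 1.

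CDKN2A belonged to a set of genes with no or almost no reads in 1 line and clear expression elsewhere. By a rule set after these values were seen, 63 genes had at most 3 counts in each HCC1806 monolayer and at least 30 counts in each library of CAL148 and of the BT474 and ZR-75-30 monolayers, and 32 of them also had at most 3 counts in each of the 4 HCC1806 spheroid libraries. The same rule turned round gave 34 genes in CAL148. In HCC1806 they included 3 pairs less than 10 kb apart: CDKN2A with CDKN2B, RIC8A with BET1L, and KCTD9 with CDCA2, which lie 521 bases apart. CDKN2A and CDKN2B, a pair of CDK inhibitors 7602 bases apart, had 0 counts in all 6 HCC1806 libraries, while CDKN2B had 45 and 91 counts in CAL148 and missed the threshold (adjusted p = 0.0501). Next to them MTAP, a methionine salvage enzyme, had 1168 and 1716 counts in CAL148 and 438 and 994 counts in HCC1806. RIC8A, a chaperone of G protein α subunits, had 5500 and 6938 counts in CAL148 and 0 counts in all 6 HCC1806 libraries. BET1L, a Golgi SNARE that lies 83 bases away, had 1747 and 1607 counts in CAL148, 0 counts in both HCC1806 monolayers and 0 to 13 counts in the HCC1806 spheroids. On the other side SIRT3, a mitochondrial deacetylase, had 865 and 1170 counts in CAL148 and 24 and 157 counts in HCC1806. PSMD13, the proteasome subunit next to it, was expressed in both lines, with 3068 and 4584 counts in CAL148 and 2207 and 3497 counts in HCC1806. RIC8A and BET1L were at least 3184-fold and 859-fold higher. Gene copy number was not measured.

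**Figure D4:**
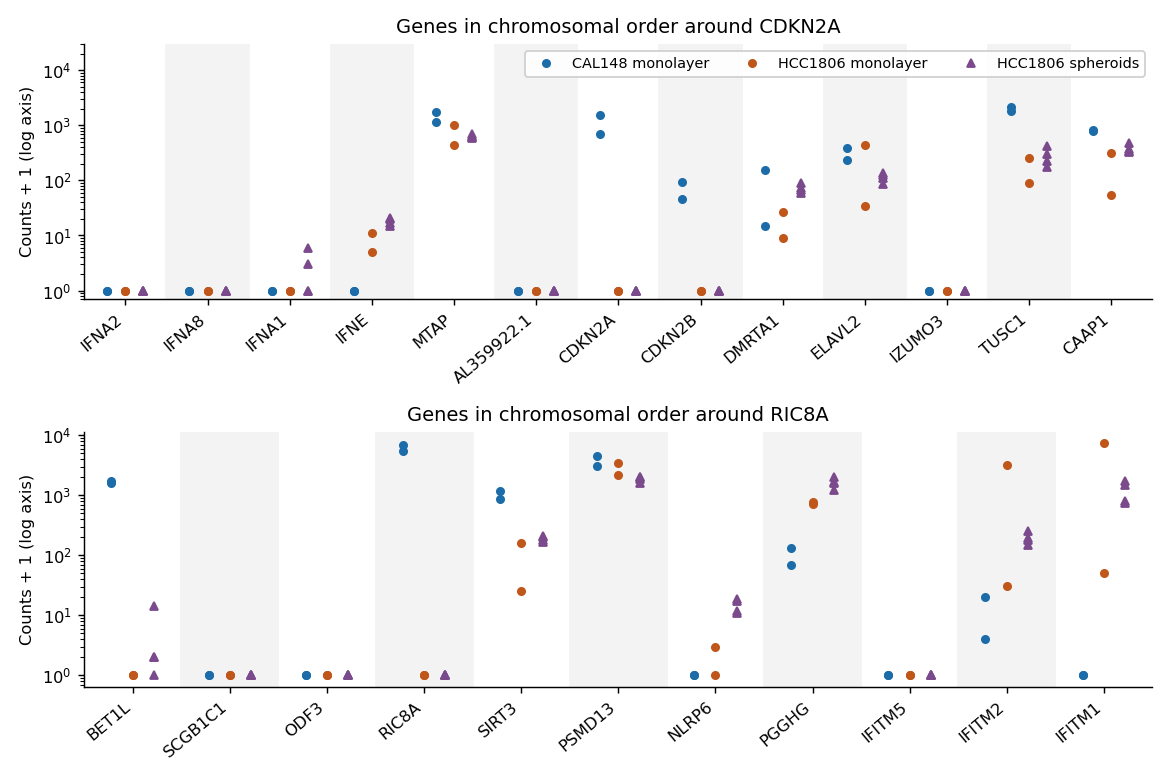
Counts plus 1 (log axis) of genes in chromosomal order around CDKN2A (top) and RIC8A (bottom), with CAL148 monolayers in blue, HCC1806 monolayers in orange and HCC1806 spheroids as purple triangles, 1 marker per library. CDKN2A, CDKN2B and RIC8A sit at 0 counts in every HCC1806 library, between neighbours such as MTAP and PSMD13 that have reads in both lines.

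HOX genes, which keep a record of a cell's position along the body axis, are given by cluster. Among 11 HOXA genes, 10 had 0 counts in both CAL148 libraries, and HOXA5 had 2 counts in each. The 10 HOXA genes tested therefore passed the count filter through HCC1806 alone, which fixed their direction, and 8 met the call. The cluster summed to 0.0568 and 0.0488 CPM in CAL148 and to 106 and 87.1 CPM in HCC1806. HOXB ran the other way: all 9 tested genes lay higher without overlap and 4 were called. Over all genes tested 30.9% lay higher without overlap and 2.4% were called higher. The HOXB cluster summed to 1343 and 1376 CPM in CAL148 and 213 and 58.5 CPM in HCC1806. HOXB8 had 173 and 144 CPM in CAL148 and 5.45 and 1.98 CPM in HCC1806 (log2 fold change 5.41 ± 0.73), and HOXB4 had 39.9 and 42.2 CPM in CAL148 and 6 and 4 counts in HCC1806 (log2 fold change 7.82 ± 0.81). HOXB3 and HOXB6 rose by 4.03 ± 0.55 and 3.98 ± 0.54 on the log2 scale, and HOXB3 lost its call in limma-voom (adjusted p = 0.0527). HOXC had 1 called gene of 9, HOXC12, with 0 counts in CAL148 and 57.7 and 45.5 CPM in HCC1806, and HOXD had 1 higher and 3 lower of 7. HOXA was thus all but unread in CAL148 and HOXB was read in both lines, at higher levels in CAL148. Over all 35 tested HOX genes, of which 11 had passed the filter through HCC1806 alone with at most 3 counts in CAL148, 5 were called higher and 12 lower (14.3% and 34.3%). Higher calls numbered 13 without HCC1806 replicate 1 and 8 without replicate 2.

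Cancer-testis antigens, germline genes that some tumours switch on, were read in HCC1806 and hardly at all in CAL148. Of 32 members 31 had 0 counts in both CAL148 libraries, and 8 had 0 counts in both HCC1806 libraries. The 19 tested had 0 counts in CAL148 and passed the count filter through HCC1806 alone, which fixed their direction, and 14 met the call. CTAG2 had 0 counts in CAL148 and 352 and 113 CPM in HCC1806, at least 5373-fold lower (adjusted p = 0.0196). MAGEA4 had 0 counts in CAL148 and 108 and 159 CPM in HCC1806, and MAGEA6 and MAGEA3, which are near-identical and may share reads, had 0 counts in CAL148 and 72.7 and 110.2 CPM (MAGEA6) and 66.2 and 79.3 CPM (MAGEA3) in HCC1806. The 19 summed to 995 and 717 CPM in HCC1806. Lower calls numbered 15 to 19 over the fits that leave out a library.

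Some interferon-stimulated genes were called lower in CAL148, and how many depended on the HCC1806 library. Of 35 tested, 9 were called lower (25.7%, against 5.45% over all genes) and none higher. Without overlap 29 lay lower, against 29.6% of all genes tested, and 6 overlapped. The count filter fixed the direction of 5 of the 35, with at most 3 counts over both CAL148 libraries. All 35 together summed to 252 and 244 CPM in CAL148 and to 15333 and 1235 CPM in HCC1806. IFITM3, an antiviral membrane protein, had 14 and 1 counts in CAL148 and 1888 and 108 CPM in HCC1806, and IFIT1, an RNA-binding effector, had 2 and 4 counts in CAL148 and 388 and 20.8 CPM in HCC1806. OAS3, an antiviral synthetase, was closer between the HCC1806 libraries, with 22.6 and 36.9 CPM in CAL148 and 699 and 357 CPM in HCC1806 (log2 fold change −4.15 ± 0.67). OAS3 lost its call without either CAL148 library (adjusted p = 0.180 and 0.0923). In the fit lacking HCC1806 replicate 1, the list had 2 higher and 14 lower calls at a median of −3.45, and without replicate 2 it had 33 lower calls at a median of −8.38. Without CAL148 replicate 1 it had 20 lower calls and without CAL148 replicate 2 it had 18.

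The 22 tested antigen presentation genes summed to 327 and 252 CPM in CAL148 and to 11015 and 1246 CPM in HCC1806. Of these, 16 lay lower and 1 higher without overlap, and 3 were called lower (13.6%). Over all genes tested 29.6% lay lower without overlap and 5.45% were called lower. TAP1 and TAP2, the peptide transporter, had 12.1 and 13.4 CPM (TAP1) and 10.4 and 10.1 CPM (TAP2) in CAL148, against 67.2 and 58.2 CPM (TAP1) and 94.9 and 54.8 CPM (TAP2) in HCC1806. NLRC5, the activator of class I genes, had 1.42 and 0.683 CPM in CAL148 and 29.4 and 23.8 CPM in HCC1806. All 3 lost their calls without either CAL148 library (adjusted p of 0.0548 to 0.450), and TAP1 with upper-quartile scaling (adjusted p = 0.0501). The list had 6 lower calls without either CAL148 library, 8 without HCC1806 replicate 1 and 19 without replicate 2. Of 15 chemokines and cytokines, 5 were called lower (33.3%), and 3 had at most 3 counts over both CAL148 libraries, which fixed their direction. The keratinocyte cytokine IL18 had 0 and 2 counts in CAL148 and 238 and 76.9 CPM in HCC1806. IL1A had 0 counts in CAL148 and 18.1 and 20.3 CPM in HCC1806. Without HCC1806 replicate 2, 15 of the 24 genes then tested on that list were called lower and 1 higher.

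None of 13 mitochondrially encoded and none of 30 ribosomal protein genes was called in either direction. The mitochondrial genes summed to 13486 and 20531 CPM in CAL148 and to 199956 and 5899 CPM in HCC1806, so all 13 overlapped. When HCC1806 replicate 1 was left out, 3 of them were called higher, and without replicate 2 all 13 were called lower. For ribosomal protein genes the same fits gave 2 higher and 1 lower, and 20 lower.

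**Figure D5:**
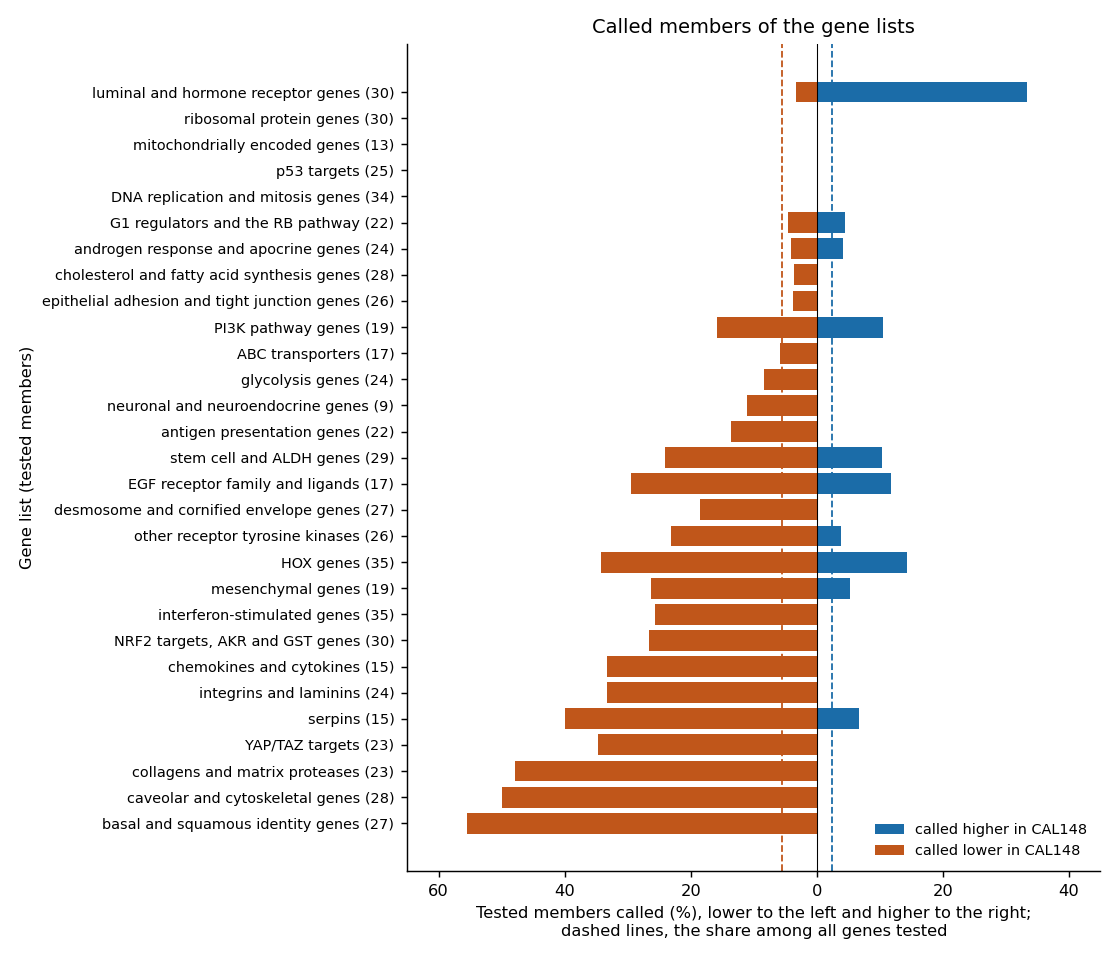
Share of the tested members of each gene list called higher (blue, right) or lower (orange, left) in CAL148, for lists with at least 7 tested members (number in parentheses) that did not all pass the count filter through 1 line alone, with dashed lines at 2.4% and 5.45%, the shares over all genes tested. Luminal genes reach 33.3% on the right, and basal and squamous genes and caveolar genes reach 55.6% and 50% on the left. The count filter fixed the direction of 8 of 30 luminal, 9 of 27 basal and squamous and 4 of 28 caveolar genes. Over all genes tested it did so for 3.26% through CAL148 alone and 5.67% through HCC1806 alone. The dashed lines are thus no like reference for these lists.

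Other genes with the largest folds fell outside these groups. Among those higher, SELENBP1, a selenium-binding methanethiol oxidase, had 210.0 and 524 CPM in CAL148 and 0 counts in HCC1806, at least 7387-fold higher. CNTNAP2, a neurexin-family adhesion protein, had 61.8 and 217 CPM in CAL148, and PPP1R1B, the phosphatase inhibitor DARPP-32, had 37.8 and 363 CPM in CAL148, both with 0 counts in HCC1806. PPP1R1B lost its call in limma-voom with quality weights (adjusted p = 0.140). The 15 highest genes all had 0 counts in both HCC1806 libraries, and WSCD1, ZNF43, THNSL2, LRRC31, OBP2B, NXPH1 and the glutamate transporter SLC1A2 were among them, at least 895-fold to 2106-fold higher. Among those lower, the forkhead factor FOXQ1 had 0 counts in CAL148 and 460.1 and 191 CPM in HCC1806, at least 7672-fold lower. PLTP, the phospholipid transfer protein, had 0 counts in CAL148 and 354 and 112 CPM in HCC1806, PLS3, the actin bundler plastin 3, had 0 counts and 90.6 and 370 CPM, and OLR1, an oxidised LDL receptor, had 0 counts and 247 and 99.2 CPM. These genes were unread in CAL148 and well expressed in both HCC1806 libraries. Of the 1415 called genes, 246 were not protein-coding. The noncoding transcript PCAT14 was at least 2213-fold higher in CAL148, with 69.2 and 151 CPM against 0 counts in HCC1806, and AC008268.1 and LRRC77P followed. AL161431.1 was at least 3739-fold lower, with 0 counts in CAL148 and 268 and 61.7 CPM in HCC1806, ahead of CCDC144NL-AS1 and AC092490.1.

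Some genes usually read as markers of other cell types were also called lower: 1 of 9 tested neuronal and neuroendocrine genes (UCHL1), 1 of 5 leukocyte markers (LCP1), 1 of 5 fibroblast markers (THY1) and none of 4 endothelial markers. Over all genes tested 5.45% were called lower, so 1 call on lists this short says little about the cell types. UCHL1, a ubiquitin hydrolase abundant in neurons, had 9.92 and 25.2 CPM in CAL148 and 858 and 647 CPM in HCC1806 (log2 fold change −5.42 ± 0.78), and it lost its call without CAL148 replicate 1 (adjusted p = 0.0965). LCP1, the actin bundler L-plastin of leukocytes, had 5.37 and 2.88 CPM in CAL148 and 160.3 and 440.0 CPM in HCC1806 (log2 fold change −6.19 ± 0.83). Of the 5 leukocyte markers tested, 4 lay lower in CAL148 without overlap (29.6% over all genes tested), LCP1 among them, at a median of −3.82 over the 5. Of all 18 on that list, 7 had 0 counts in both CAL148 libraries and 5 in both HCC1806 libraries, and 4, CD3D and CD3E among them, in all 4. THY1, a surface glycoprotein of fibroblasts, had 0 counts in CAL148 and 5.08 and 2.16 CPM in HCC1806 and lost its call without either CAL148 library (adjusted p = 0.0773 and 0.0881). Without HCC1806 replicate 2, 4 leukocyte and 3 fibroblast markers were called lower.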

How the data were processed

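Human breast cancer cell lines were profiled by RNA-seq with paired 150 bp reads. Per the submitters' processing notes, reads were aligned to GRCh38 with HISAT2 2.2.1 and counted with featureCounts 2.0.6. The authors deposited raw read counts per gene, FPKM values (fragments scaled to gene length and library size) and each gene's length. Strand setting and the handling of reads that map to several places are not given in the sources used here, so overlapping, antisense and near-identical genes are uncertain. Groups were taken from sample titles, since the treatment label names a monolayer for all 16 libraries.

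From the deposited counts, edgeR 4.0.16 (R 4.3.3) fitted the 4 libraries with TMM scaling, filterByExpr (minimum count 10, minimum total 15) and a robust quasi-likelihood test, with 2 residual degrees of freedom. Adjusted p-values are Benjamini-Hochberg values over all 18024 genes tested. CPM values are TMM-normalised. A called gene passed 0.05 without overlap of the lines. Where a line had 0 counts, the fold is a bound against 3 counts over both its libraries. With 1 to 3 counts it is a ratio with an exact 95% interval. FPKM values were used for levels between keratins and, as log2(FPKM + 0.1), in limma 3.58.1. Promoter sequences are RefSeq's. The fit was also run on simulated data in which both lines shared the same spread. The HCC1806 pair spread more widely than the CAL148 pair, so that run gives no error rate for these libraries.

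Genes named are the 15 highest and 15 lowest protein-coding called genes with a mean of at least 5 CPM over the 4 libraries, 3 noncoding genes each way, a panel of receptor, keratin, adhesion, stem cell and cell cycle genes, and up to 4 called genes per list and direction, the most abundant taken before others. Neighbours of silent genes and markers at or near 0 counts were named after their values were seen. Members and gene lists were chosen with earlier results of these data known. Alternatives were DESeq2 1.42.0, limma-voom, other scalings and filters, wider fits and leaving out each library. Some genes are not reported here.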

Additional observations from a re-analysis of the deposited data

How the results depend on the processing

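The number of called genes depended on the library left out and on the test, with 2 libraries per line. Against 433 higher and 982 lower genes, there were 1380 and 2477 with no count filter, 1454 and 2604 with DESeq2, 1528 and 2429 in a fit of the 8 monolayer libraries, 3584 and 4839 in a fit of all 16, 748 higher with limma on log2 FPKM and 1544 lower with limma-voom. Leaving out 1 library gave 381 to 2906 higher and 860 to 3559 lower. Of the gene lists' members, 27 were called higher and 153 lower. These counts were 68 and 284 with no count filter, 61 and 288 with DESeq2, 63 and 257 with 8 libraries, 108 and 358 with 16, and 31 to 119 and 156 to 322 when leaving out 1 library. Deviations of same-numbered libraries were hardly correlated between the lines over all genes (correlation 0.0749). That does not settle whether those libraries were handled together. A replicate block gave 1009 higher and 1820 lower genes and 62 higher list members. A call already required the lines not to overlap, so leaving out a library could hardly reverse one. Some named genes lost their calls in 1 or more alternatives, as given above. Of 136 called genes named, none reversed under the 16 alternatives. Uncalled genes with small differences did: over the fits without 1 library GATA3 had log2 fold changes of −0.53 to 1.40, CDH1 −0.27 to 0.69, MKI67 −3.18 to 0.38 and EPCAM −0.12 to 0.0146, and EPCAM had 0.0161 with upper-quartile factors and 0.0117 with no count filter. The cause was not tested. Depth limits genes under about 3 counts per library.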
